A study of Mus musculus with 6 samples.

Results

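Integrins, laminins and basement membrane proteins were examined in sorted mouse cells that over-expressed Sox3 and that the labels call neural progenitor cells. The members were 33 listed genes, 15 integrin subunits and 18 matrix genes that include integrin ligands, with 1 named probe set taken per gene, the one whose mean across the 6 arrays was highest. Of these, 31 of 33 had a probe set that matched their symbol (14 integrins and 17 matrix genes), out of 15302 named genes on the arrays. No probe set matched Itgb8 or Lama3. The Sox3 over-expression group was 3 samples with the genotype Sox1-GFP and Nestin-Sox3, in which the Nestin promoter drives a Sox3 transgene, here called Nestin-Sox3 cells. The control group was 3 samples with Sox1-GFP alone, here called Sox1-GFP cells. Both were derived from mouse embryonic stem cells that carry GFP at the Sox1 locus, spent 4 days as monolayers on a gelatin-coated surface with 0.5 µM retinoic acid on days 0 and 2, and were trypsinised and sorted on day 4. Gelatin is a matrix-derived substrate that all 6 samples shared. The labels call the samples biological replicates but do not say whether they were separate cultures or whether each genotype was 1 stem cell clone. The p-values set the difference between the groups against the spread between these samples. If each genotype was 1 clone, a difference between clones cannot be told apart from one that goes with Sox3.

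Integrins are heterodimers of an alpha and a beta subunit that attach cells to the extracellular matrix and link it to the actin cytoskeleton. Laminins are trimers of an alpha, a beta and a gamma chain that polymerise into the basement membrane, where nidogens and the proteoglycan perlecan join them to type IV collagen. In the neural tube, progenitors contact a laminin-rich basement membrane through their basal side.

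Of the 31 measured genes, 4 passed the test. Itga3, the alpha3 subunit of a laminin receptor, was 1.34-fold higher in Nestin-Sox3 cells, and Nid1, the laminin-binding linker nidogen 1, was 1.24-fold higher. Fn1, which encodes fibronectin, was 1.24-fold lower, and Tgfbi, which encodes a secreted matrix protein that binds integrins, was 1.59-fold lower. Over all named genes, 3.94% passed the same threshold (1.27% higher and 2.67% lower), an adjusted p under 0.05 in limma. Of all probe sets that passed, 32.2% had risen, or 43.6% when the deposited values were quantile-normalised once more. The count among the members (2 higher and 2 lower) is small, and it is given as a description of them.

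The promoters of the genes that passed are shown because these are the sequences next to the changed genes, and they come from RefSeq (GRCm38.p6). Windows of Itga3, Nid1 and Tgfbi are printed, and that of Fn1 was not analysed here. Each window holds the 250 bases before an annotated start, 5′ to 3′ on the strand of the gene. Capitals mark the GC box letters GGGCGG and the Sox-type core letters ACAAT and ACAAAG, each on both strands.
Itga3, first listed start (chr11:95076715-95076964, minus strand): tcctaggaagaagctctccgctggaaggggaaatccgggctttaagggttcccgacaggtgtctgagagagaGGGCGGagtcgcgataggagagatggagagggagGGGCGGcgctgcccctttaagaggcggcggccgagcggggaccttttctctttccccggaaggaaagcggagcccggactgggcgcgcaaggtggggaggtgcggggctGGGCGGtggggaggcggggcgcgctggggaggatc
Itga3, second listed start (chr11:95069199-95069448, minus strand): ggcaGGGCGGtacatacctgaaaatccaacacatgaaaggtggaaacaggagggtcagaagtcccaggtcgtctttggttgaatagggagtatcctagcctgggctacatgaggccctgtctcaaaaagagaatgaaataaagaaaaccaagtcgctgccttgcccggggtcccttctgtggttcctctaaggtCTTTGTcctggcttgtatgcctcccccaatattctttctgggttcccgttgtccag
Nid1 (chr13:13437352-13437601, plus strand): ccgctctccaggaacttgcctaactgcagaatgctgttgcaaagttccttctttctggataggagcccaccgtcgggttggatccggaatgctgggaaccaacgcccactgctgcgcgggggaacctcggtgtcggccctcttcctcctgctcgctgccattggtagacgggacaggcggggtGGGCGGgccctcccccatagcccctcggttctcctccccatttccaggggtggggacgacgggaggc
Tgfbi (chr13:56609336-56609585, plus strand): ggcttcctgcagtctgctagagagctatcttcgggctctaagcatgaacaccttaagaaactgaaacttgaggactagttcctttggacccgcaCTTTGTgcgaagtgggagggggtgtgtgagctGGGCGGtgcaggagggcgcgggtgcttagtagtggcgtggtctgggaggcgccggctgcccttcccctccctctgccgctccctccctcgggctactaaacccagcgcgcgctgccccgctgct
The letters GGGCGG were in all 4 windows, 3 times before the first start of Itga3 and once in each of the others. They are in 32.7% of all 32841 windows of this length, ACAAT in 27.7% and ACAAAG in 16.5%. ACAAT was in none of the 4, and ACAAAG was in the window before the second start of Itga3 and in that of Tgfbi, both times as its reverse complement. The 4 windows had a GC content of 50.8% to 67.6%, against a median of 52.4% over all windows.

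Values are log2 signals as the authors deposited them, summarised with RMA, and lay between 4.41 and 14.59. Median signals were 6.85 to 6.87 on the 6 arrays. Sox3 itself was 9.20, 9.23 and 9.22 in Nestin-Sox3 cells and 7.59, 7.52 and 7.25 in Sox1-GFP cells, a log2 difference of 1.76 ± 0.08 (SE, n = 3 per group; limma adjusted p = 0.000189), so the labels hold for this gene. Sox1-GFP replicate 3 had the widest spread of signals, with an interquartile range of 3.17 against 2.89 to 3.02 on the other arrays, and it gave the lowest of the 6 values for 12 of the 31 members. Dimmer genes leaned upward and brighter genes downward, with medians of 0.02 to 0.05 in the 5 dimmer deciles of signal and -0.08 to -0.02 in the 5 brighter ones (log2 difference). Of the neural progenitor markers, 6 of 10 had a log2 difference above 0, with a median of 0.02. Sox1, the gene of the reporter, was at 6.86 ± 0.12 in Nestin-Sox3 cells and 6.96 ± 0.11 in Sox1-GFP cells (SD, n = 3 each), and Pax6 at 5.86 ± 0.03 and 6.05 ± 0.04. Fabp7 (0.77 ± 0.20), Msi1 (0.21 ± 0.12) and Nes (0.14 ± 0.06) had the highest log2 differences of the list (SE; limma adjusted p = 0.074, 0.33 and 0.21), and Sox2, which fell by 0.37 ± 0.06 (limma adjusted p = 0.024), was the 1 marker past the threshold. No detection call came with the values, so whether such signals lay above background is unknown.

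**Figure D1:**
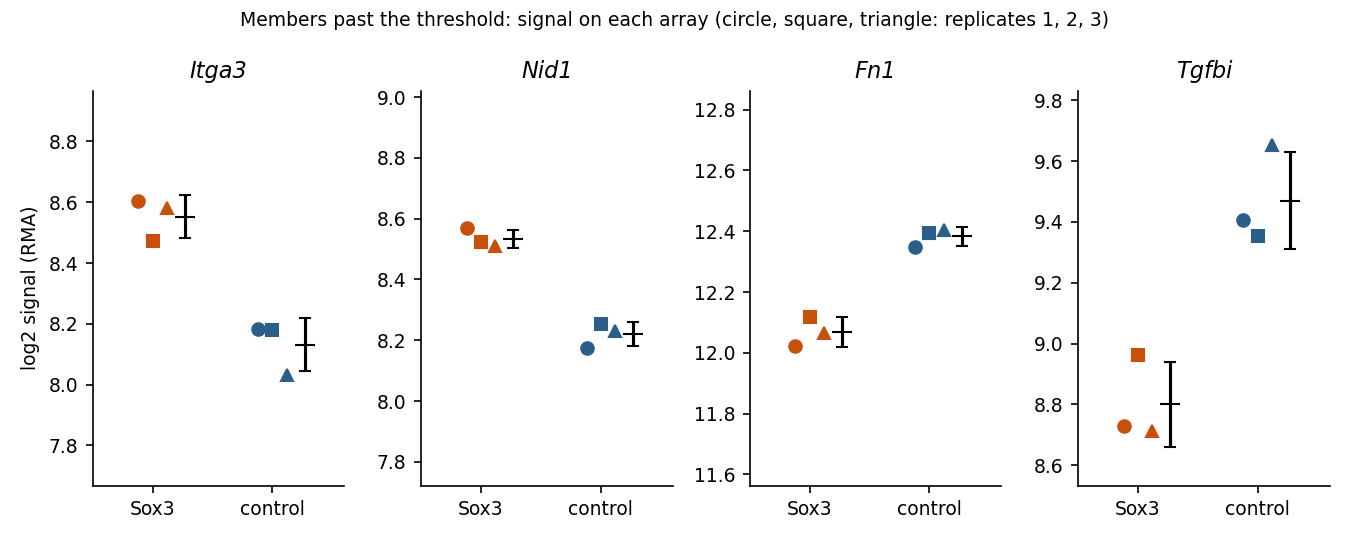
Log2 signal of the 4 members past the threshold, 1 panel per gene, with the Sox3 over-expression arrays on the left (orange) and the Sox1-GFP arrays on the right (blue); symbols are replicates and black bars the mean ± SD (n = 3). Each panel spans the same number of log2 units, and in each the 2 groups do not overlap, with Itga3 and Nid1 higher and Fn1 and Tgfbi lower in the Nestin-Sox3 arrays.

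Among the integrins, 1 of 14 rose and 0 fell. Before adjustment, at p under 0.05 by limma, 4 of 14 passed, against 23.8% of all genes. Itga3 pairs with beta1 to bind laminins such as those that contain the alpha5 chain. Its log2 signal was 8.60, 8.47 and 8.58 in Nestin-Sox3 cells, against 8.18, 8.18 and 8.03 in Sox1-GFP cells. All 3 Nestin-Sox3 arrays lay above all 3 Sox1-GFP arrays. The log2 difference was 0.42 ± 0.06 (SE, n = 3 per group; limma adjusted p = 0.014), and the call was lost without Nestin-Sox3 replicate 1 or 3 (limma adjusted p = 0.069 and 0.052).

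The other laminin-binding subunits did not pass. Itga6, the alpha6 subunit that pairs with beta1 or beta4, was at 10.63, 10.68 and 10.49 in Nestin-Sox3 cells and 10.43, 10.35 and 10.39 in Sox1-GFP cells, with no overlap between the groups. Its log2 difference was 0.21 ± 0.06 (SE, n = 3 per group; limma adjusted p = 0.099), with a 95% interval of 0.07 to 0.35 that is not adjusted for the number of genes. Itgb4, the beta4 subunit of hemidesmosomes, was at 6.54, 6.42 and 6.50 in Nestin-Sox3 cells, against 6.41, 6.26 and 6.09 in Sox1-GFP cells. The groups were separate but close, and Sox1-GFP replicate 3 was the lowest. The log2 difference of Itgb4 was 0.23 ± 0.08 (SE, n = 3 per group; limma adjusted p = 0.14), or 0.15 without Sox1-GFP replicate 3. Itga7, the alpha7 subunit known from muscle, had a log2 difference of -0.05 ± 0.07 (SE), and its groups overlapped.

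Itgb1 encodes the beta subunit shared by most of the alpha subunits listed here. It was at 9.40, 9.32 and 9.44 in Nestin-Sox3 cells and 9.18, 9.25 and 9.36 in Sox1-GFP cells. The groups overlapped, because Sox1-GFP replicate 3 lay above Nestin-Sox3 replicate 2. The log2 difference of Itgb1 was 0.12 ± 0.06 (SE, n = 3 per group; limma adjusted p = 0.27), with a 95% interval of -0.02 to 0.26.

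Subunits of receptors that recognise the RGD motif of fibronectin and vitronectin did not pass, in 5 of 5 measured cases. Itga5, the alpha5 subunit of the fibronectin receptor, was at 6.50, 6.50 and 6.50 in Nestin-Sox3 cells, against 6.38, 6.36 and 6.28 in Sox1-GFP cells. The groups did not overlap, and the Nestin-Sox3 arrays were nearly identical to each other. The log2 difference of Itga5 was 0.16 ± 0.05 (SE, n = 3 per group; limma adjusted p = 0.11). Itgav, which pairs with several beta subunits, differed by 0.07 ± 0.05 (SE; limma adjusted p = 0.38). Its groups were barely separate, with 7.042 on the lowest Nestin-Sox3 array against 7.0414 on the highest from Sox1-GFP cells. Its partners Itgb3 and Itgb5 had log2 differences of 0.10 ± 0.06 and -0.02 ± 0.06 (SE), and Itga8 one of 0.02 ± 0.07 (SE), each with overlapping groups.

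The collagen-binding subunits Itga1 and Itga2 had log2 differences of 0.04 ± 0.09 and 0.03 ± 0.07 (SE). Itga4 and Itga9, related subunits that bind fibronectin and other ligands, differed by 0.07 ± 0.05 and 0.06 ± 0.06 (SE). None of these 4 passed (limma adjusted p = 0.45 to 0.82). Itga1 and Itga4 were below the 25th percentile of signal over all probe sets, where RMA is known to compress differences. Itga9 and Itgb4 each had a further probe set with the same values, which adds no information.

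Most of the small differences lay on one side. Of the 14 integrins, 12 had a log2 difference above 0, against 50.01% of all genes, and their median was 0.07, against 0.00 over all genes. With each gene set against the median of its signal decile, 11 of 14 lay above it, and after quantile normalisation of the deposited values 11 of 14 lay above 0. All 3 Nestin-Sox3 arrays were above all 3 Sox1-GFP arrays for 5 integrins (Itga3, Itga6, Itgb4, Itga5 and Itgav) and below them for 0, against 13.1% of all genes above and 18.3% below. These counts describe the listed genes and were not tested as a set.

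**Figure D2:**
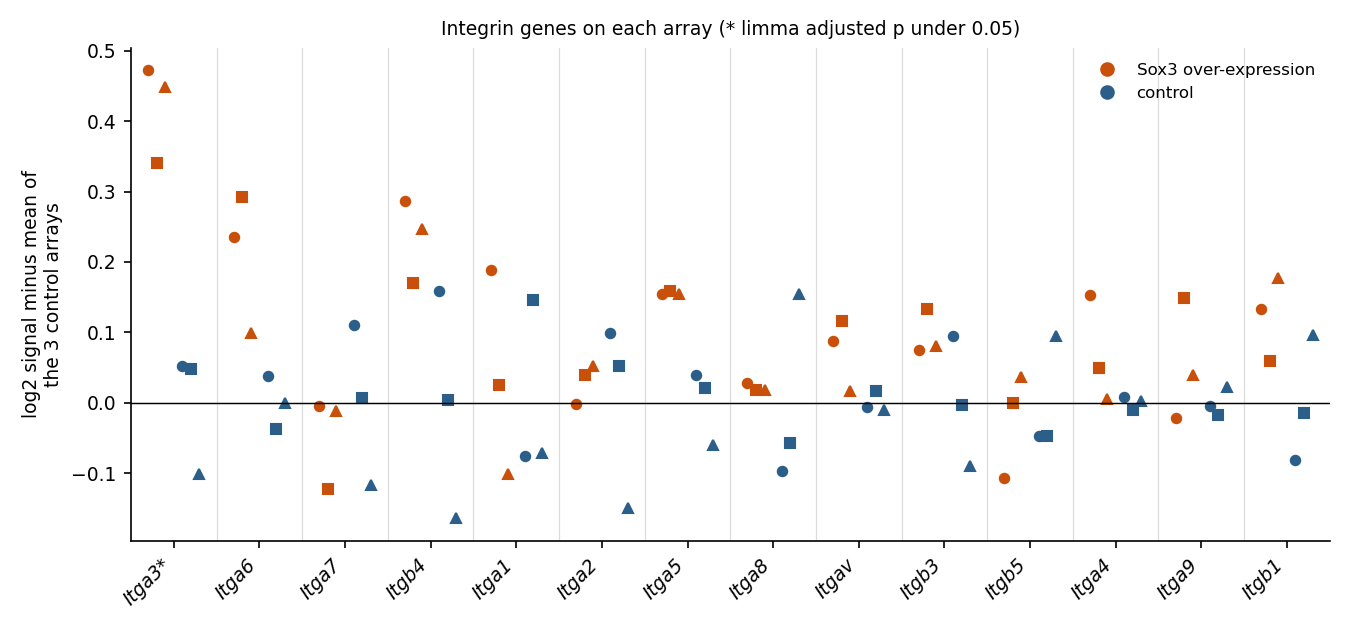
Log2 signal of the 14 integrin genes on each array minus the mean of the 3 Sox1-GFP arrays for that gene, with Sox3 over-expression arrays in orange to the left and Sox1-GFP arrays in blue to the right within each gene (circle, square and triangle are replicates 1, 2 and 3). Itga3, marked with an asterisk, stands highest, and for 5 genes all orange points lie above all blue ones.

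Among the laminins and other matrix genes, 1 of 17 rose and 2 fell. Before adjustment, at p under 0.05 by limma, 5 of 17 passed, against the same 23.8% of all genes. Nid1, one of a pair of nidogens that bind the laminin gamma1 chain, was the gene that rose. Its log2 signal was 8.57, 8.52 and 8.51 in Nestin-Sox3 cells, against 8.18, 8.25 and 8.23 in Sox1-GFP cells, with tight groups that did not overlap. The log2 difference was 0.31 ± 0.05 (SE, n = 3 per group; limma adjusted p = 0.015). This call was lost without Nestin-Sox3 replicate 1 or 2 (limma adjusted p = 0.071 and 0.066).

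The other linkers and proteoglycans did not pass. Nid2, the second nidogen, was at 9.08, 9.20 and 9.15 in Nestin-Sox3 cells and 8.97, 9.06 and 9.08 in Sox1-GFP cells, a log2 difference of 0.10 ± 0.05 (SE, n = 3 per group; limma adjusted p = 0.29). Its groups were barely separate, at 9.083 on the lowest Nestin-Sox3 array and 9.0794 on the highest Sox1-GFP array. Hspg2, which encodes perlecan, differed by 0.11 ± 0.06 (SE; limma adjusted p = 0.32), or 0.058 without Sox1-GFP replicate 3, with overlapping groups. Agrn encodes agrin, a heparan sulfate proteoglycan of basement membranes and synapses, and it leaned the other way. Agrn was at 7.39, 7.39 and 7.32 in Nestin-Sox3 cells, against 7.56, 7.56 and 7.48 in Sox1-GFP cells, with no overlap. Its log2 difference was -0.16 ± 0.05 (SE, n = 3 per group; limma adjusted p = 0.11).

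None of the 9 measured laminin chains passed in limma's test. At an unadjusted p under 0.05, 1 of 9 passed, against 23.8% of all genes. That chain was Lamb2, the beta2 chain that takes the place of beta1 in synaptic and kidney laminins. Lamb2 was at 6.86, 7.04 and 6.83 in Nestin-Sox3 cells, against 7.30, 7.11 and 7.24 in Sox1-GFP cells. All Nestin-Sox3 arrays lay below all Sox1-GFP arrays, and the log2 difference was -0.31 ± 0.07 (SE, n = 3 per group; limma adjusted p = 0.063). With the probe sets below the 25th percentile of signal left out of the test its adjusted p was 0.048 in limma. With this filter, 6.4% of the remaining genes passed.

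The other 8 chains had log2 differences of -0.09 to 0.09, and their groups overlapped in each case. Lama1, the alpha chain of the early embryonic laminin, was at 11.39, 11.53 and 11.69 in Nestin-Sox3 cells and 11.28, 11.61 and 11.61 in Sox1-GFP cells, a difference of 0.04 ± 0.11 (SE, n = 3 per group; limma adjusted p = 0.84). Its main partners Lamb1 and Lamc1, the beta1 and gamma1 chains of most laminins, differed by -0.07 ± 0.08 and -0.09 ± 0.05 (SE; limma adjusted p = 0.64 and 0.31). Lama5, the alpha chain found in most later basement membranes, differed by 0.04 ± 0.06, Lama2, the alpha chain of muscle and nerve laminin, by 0.07 ± 0.11, and Lama4, that of vessels, by 0.09 ± 0.05 (SE). The epithelial chain Lamb3 differed by 0.09 ± 0.10 and the gamma3 chain Lamc3 by 0.03 ± 0.06 (SE). The 95% intervals of these 8 differences ran from -0.25 at the lowest to 0.33 at the highest.

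Fn1 encodes fibronectin, a matrix protein assembled into fibrils by integrins. It was at 12.02, 12.12 and 12.07 in Nestin-Sox3 cells, against 12.35, 12.40 and 12.41 in Sox1-GFP cells, and the groups did not overlap. The log2 difference was -0.31 ± 0.05 (SE, n = 3 per group; limma adjusted p = 0.016), beside a median of -0.08 for genes in the same decile of signal. After quantile normalisation it was -0.23 (limma adjusted p = 0.038). The call was lost without any 1 of the Nestin-Sox3 replicates or without Sox1-GFP replicate 2 (limma adjusted p = 0.055 to 0.073). The probe set was 1 per gene, so spliced forms of fibronectin could not be told apart.

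Tgfbi had the largest log2 difference of the 31 members. Its log2 signal was 8.73, 8.96 and 8.71 in Nestin-Sox3 cells, against 9.40, 9.35 and 9.65 in Sox1-GFP cells. All 3 Nestin-Sox3 arrays lay well below the Sox1-GFP arrays, a difference of -0.67 ± 0.10 (SE, n = 3 per group; limma adjusted p = 0.012). Leaving out Nestin-Sox3 replicate 1 gave -0.63, and Tgfbi then no longer passed (limma adjusted p = 0.062). The 2 remaining matrix genes did not pass. Sparc, a collagen-binding matricellular protein, was at 10.43, 10.38 and 10.45 in Nestin-Sox3 cells and 10.14, 10.49 and 10.28 in Sox1-GFP cells (log2 difference 0.12 ± 0.08 SE, n = 3 per group; limma adjusted p = 0.43). It was 0.035 without Sox1-GFP replicate 1 and 0.21 without Sox1-GFP replicate 2. Another probe set without a gene name had the same values as that of Sparc. Vtn, vitronectin, differed by -0.01 ± 0.07 (SE; limma adjusted p = 0.96).

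The matrix genes lay on both sides of 0. Of the 17, 10 had a log2 difference above 0, and the median was 0.04. Without Sox1-GFP replicate 3, 7 of 17 lay above 0 and the median was -0.02. All 3 Nestin-Sox3 arrays were above the Sox1-GFP arrays for 2 of these genes (Nid1 and Nid2) and below them for 4 (Lamb2, Agrn, Fn1 and Tgfbi), against the same 13.1% and 18.3% of all genes.

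**Figure D3:**
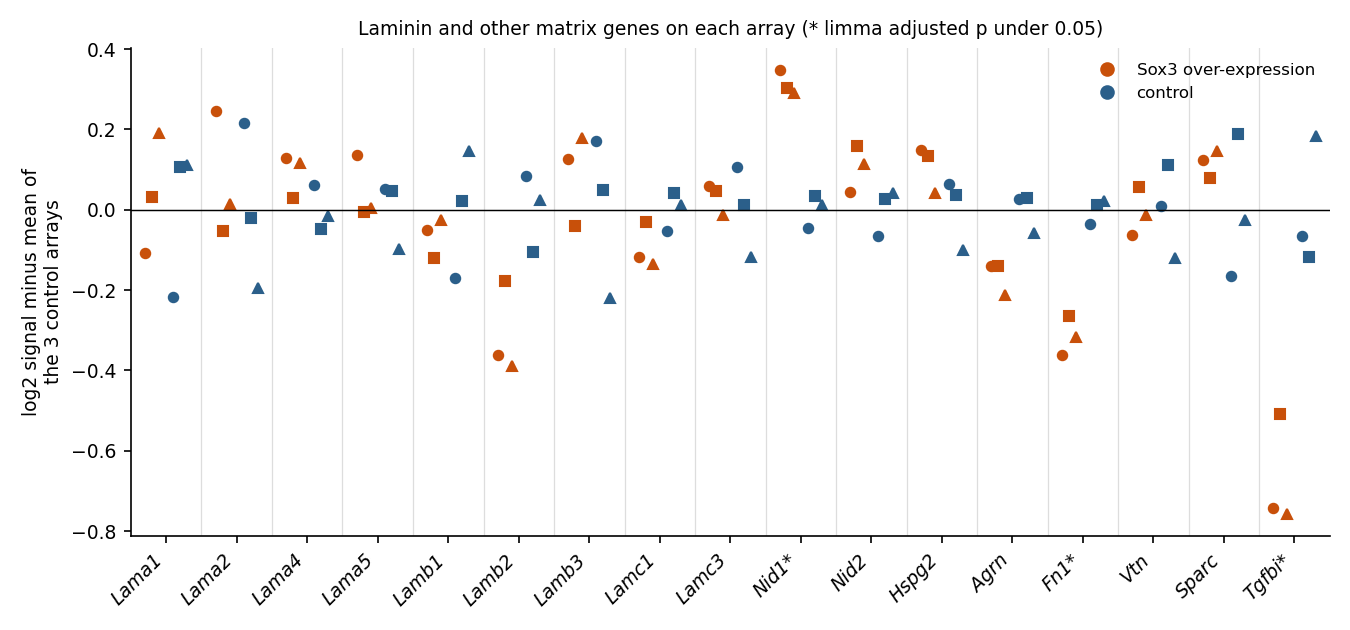
Log2 signal of the 17 laminin and other matrix genes on each array minus the mean of the 3 Sox1-GFP arrays for that gene, with Sox3 over-expression arrays in orange to the left and Sox1-GFP arrays in blue to the right within each gene (circle, square and triangle are replicates 1, 2 and 3). Nid1 lies above and Fn1 and Tgfbi below the Sox1-GFP arrays, as marked by asterisks, while points of most laminin chains intermingle.

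Receptors and ligands, or linkers that bind each other, were also set side by side. Itga5 and Fn1, receptor subunit and ligand, had log2 differences of 0.16 ± 0.05 and -0.31 ± 0.05 (SE), of which that of Fn1 passed. For Itga3 and the laminin alpha5 chain Lama5 the values were 0.42 ± 0.06 and 0.04 ± 0.06 (SE), and Itga3 passed. For Nid1 and Lamc1, which bind each other, they were 0.31 ± 0.05 and -0.09 ± 0.05 (SE), and Nid1 passed. Whether the members of a pair differed from each other was not tested.

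**Figure D4:**
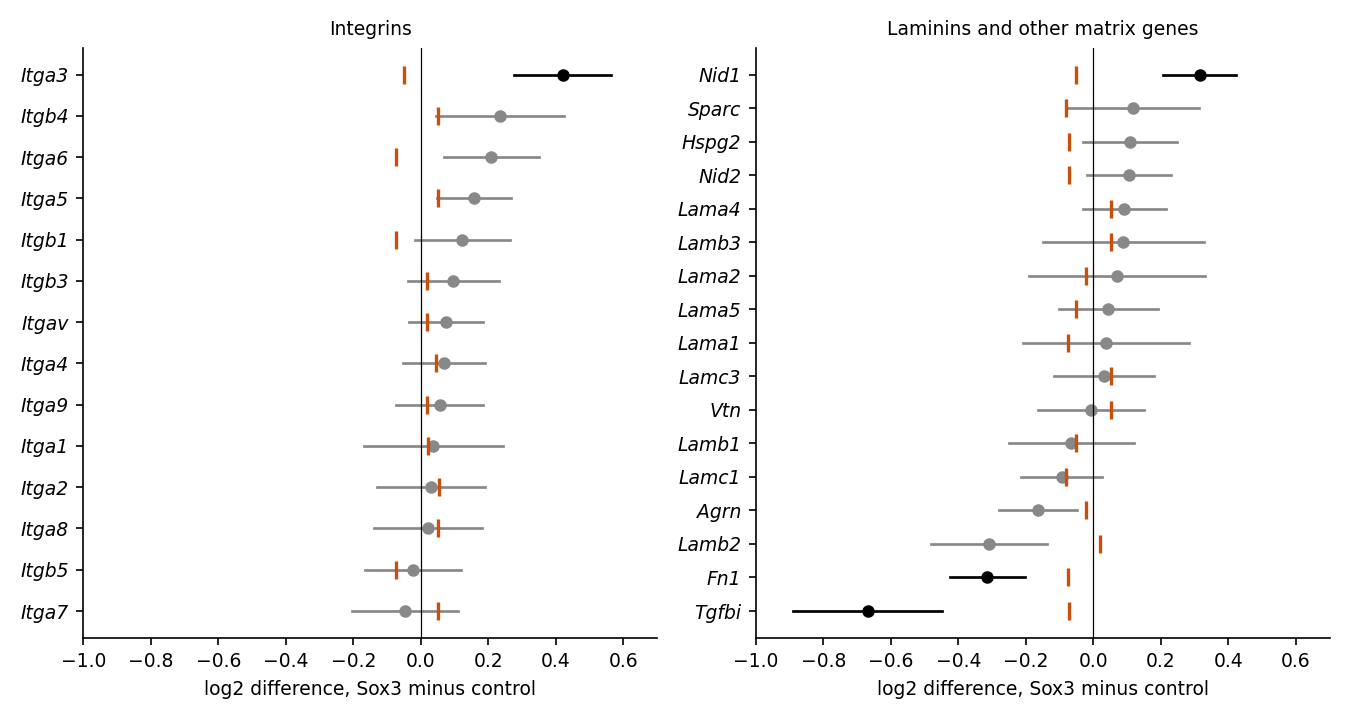
Log2 differences, Sox3 over-expression minus control, of the 14 integrins and the 17 laminin and other matrix genes (points) with 95% intervals from limma (bars), black where the adjusted p is under 0.05 and grey otherwise; the orange tick is the median difference of all genes in the same decile of signal. Itga3 and Nid1 lie to the right and Fn1 and Tgfbi to the left of 0 and of their ticks.

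Other genes of adhesion and matrix were read from 5 further lists. Over all named genes, 1.27% rose and 2.67% fell at the same threshold. In the integrin adhesion complex 1 of 24 genes rose and 0 fell. This was Zyx, which encodes the focal adhesion protein zyxin, at 8.34 ± 0.01 in Nestin-Sox3 cells and 8.11 ± 0.06 in Sox1-GFP cells (SD, n = 3 each; limma adjusted p = 0.049), a call that did not hold when any single array was left out (adjusted p up to 0.14 in limma). It was also lost with the replicate block (limma adjusted p = 0.073), median centring (0.056), the filter at the 25th percentile (0.05003) or an intensity trend (0.076). The list's median log2 difference was 0.08, against 0.00 over all genes. Of the 24, 17 lay above 0 and 9 had an unadjusted p under 0.05 in limma, against 50.01% and 23.8% of all genes. All Nestin-Sox3 arrays lay above all Sox1-GFP arrays for 10 and below them for 2, against 13.1% and 18.3% of all genes. The list was not tested as a set. Of 8 integrins outside the member list, 1 rose: Itgb2, the beta2 subunit of leukocyte integrins, was 5.80 ± 0.08 in Nestin-Sox3 cells and 5.35 ± 0.06 in Sox1-GFP cells (SD, n = 3 each; limma adjusted p = 0.0093), near the dim end of the arrays.

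Cell surface matrix receptors went both ways, with 1 of 19 higher and 3 lower, against 1.27% and 2.67% of all genes. Gpc4, the heparan sulfate proteoglycan glypican 4, rose with a log2 difference of 0.80 ± 0.07 (SE, n = 3 per group; limma adjusted p = 0.0026) and kept its call in all 6 fits with 1 array left out. Its relatives Gpc3 and Gpc1 fell by 0.49 ± 0.08 and 0.45 ± 0.08 on the same scale (SE; limma adjusted p = 0.016 and 0.024), and Cd47, an integrin-associated membrane protein, by 0.34 ± 0.07 (SE; limma adjusted p = 0.047). The Gpc3 call was lost without Nestin-Sox3 replicate 1 or 2 or Sox1-GFP replicate 2, that of Gpc1 without any Nestin-Sox3 replicate or Sox1-GFP replicate 1, and that of Cd47 without any 1 array (limma adjusted p up to 0.072, 0.081 and 0.11). Cd47 was also lost after quantile normalisation, with median centring and with the replicate block (limma adjusted p = 0.081, 0.051 and 0.071).

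Of the 23 genes reported from the list of other basement membrane proteins, 2 fell, against 2.67% of all genes. The list lay on both sides of 0, with 12 of 23 log2 differences above it and a median of 0.01. For the 21 genes that did not pass, the summed linear signal was 7683 to 8460 on Nestin-Sox3 arrays and 6857 to 7394 on Sox1-GFP arrays. Smoc1, a calcium-binding relative of Sparc, fell by 0.71 ± 0.11, and Fras1, a large basement membrane protein of epithelia, by 0.52 ± 0.10 in log2 signal (SE, n = 3 per group; limma adjusted p = 0.018 and 0.039). These calls were lost without Nestin-Sox3 replicate 1 or 2 or Sox1-GFP replicate 2, and that of Fras1 also without Sox1-GFP replicate 1 or 3 (limma adjusted p up to 0.075 and 0.14).

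Of 25 genes of matrix processing and turnover 1 rose and 3 fell, against 1.27% and 2.67% of all genes. Bmp1, a protease that processes procollagen and laminin chains, rose by 0.29 ± 0.05 (SE, n = 3 per group; limma adjusted p = 0.023). Mmp2, a gelatinase, fell by 0.46 ± 0.07, and the collagen prolyl hydroxylase subunits P4ha2 and P4ha1 by 0.43 ± 0.08 and 0.30 ± 0.06 (SE; limma adjusted p = 0.014, 0.034 and 0.048). Without Nestin-Sox3 replicate 1 or 2, Mmp2 no longer passed (adjusted p up to 0.064 in limma). Bmp1, P4ha1 and P4ha2 each kept their call in 1 of 6 such fits (limma adjusted p up to 0.075, 0.16 and 0.12), those without Sox1-GFP replicate 3, Sox1-GFP replicate 1 and Nestin-Sox3 replicate 3 in turn, and P4ha1 also lost it under median centring or an intensity trend (limma adjusted p = 0.061 and 0.058).

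**Figure D5:**
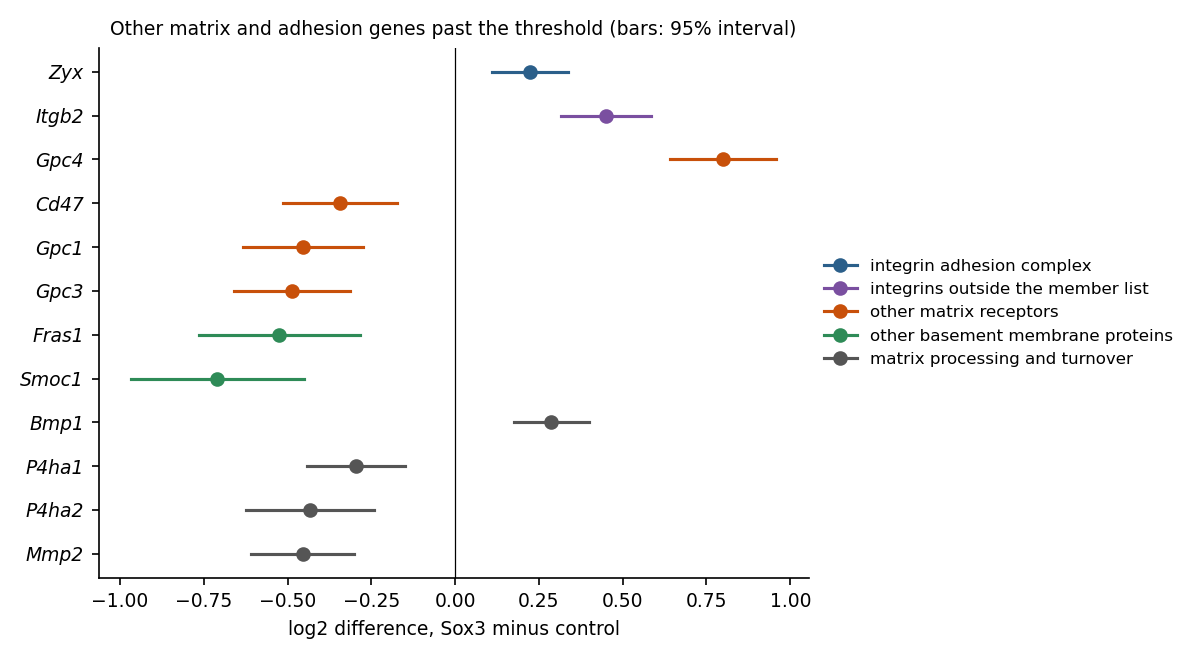
Log2 differences, Sox3 over-expression minus control, with 95% intervals, for the 12 reported genes past the threshold in the 5 further lists of adhesion and matrix genes, coloured by list. Gpc4 lies furthest to the right and Smoc1 furthest to the left.

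Several matrix genes are also made by other cells that the sorted population could hold, and markers of some of these moved in the same comparison. In bulk RNA, fewer cells of a type and less RNA per cell cannot be told apart. The marker counts given here and below stand beside 1.27% of all genes higher and 2.67% lower. Of 13 visceral endoderm markers 5 fell (Cubn, Foxa2, Afp, Rbp4 and Ttr), and the summed linear signal of all 13 was 1380 to 1558 on the Nestin-Sox3 arrays and 1717 to 2114 on the Sox1-GFP arrays. Of 12 mesenchyme and fibroblast markers 3 fell (Meox1, Col1a2 and Col3a1), with sums of 1522 to 1592 and 1789 to 2056 on Nestin-Sox3 and Sox1-GFP arrays. Both lists had markers on either side of 0, and 6 of 13 and 7 of 12 had a log2 difference above 0, with medians of -0.12 and 0.02. All Nestin-Sox3 arrays lay below all Sox1-GFP arrays for 7 of 13 and 4 of 12, against 18.3% of all genes. They lay above for 0 in both lists, against 13.1%. At an unadjusted p under 0.05 in limma, 7 of 13 and 4 of 12 passed, against 23.8% of all genes. Without the genes that passed, the sums overlapped. They were then 673 to 749 on Nestin-Sox3 arrays and 688 to 720 on Sox1-GFP arrays for the 8 other visceral endoderm markers, and 770 to 799 against 753 to 811 for the 9 other mesenchyme markers. The genes left out were picked by their difference, so this overlap does not show that the others were unchanged. The brightest of the genes that fell were Cubn, at 7.98 ± 0.07 in Nestin-Sox3 cells and 8.97 ± 0.32 in Sox1-GFP cells, Foxa2, at 8.46 ± 0.13 and 9.03 ± 0.21, and Meox1, at 9.28 ± 0.12 and 9.91 ± 0.16 (SD, n = 3 each). The part of such other cells in these results was not tested.

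Parietal endoderm, which secretes laminin, nidogen and Sparc, had 1 of 14 markers lower (Krt8) and sums that overlapped, 9043 to 10837 on Nestin-Sox3 arrays and 8148 to 10267 on Sox1-GFP arrays. Its markers went both ways, with log2 differences of -0.53 to 0.35, of which 8 of 14 lay above 0. At an unadjusted p under 0.05 in limma, 7 of 14 passed, against 23.8% of all genes. Of 11 endothelial markers 1 fell (Egfl7), with sums of 1097 to 1156 and 1135 to 1193. For the 10 others the sums were 783 to 812 on Nestin-Sox3 arrays and 719 to 773 on Sox1-GFP arrays. The log2 difference was above 0 for 8 of the 11, with a median of 0.07. Egfl7 lost its call when any single array was left out (limma adjusted p up to 0.14). Of 7 neural crest markers 1 rose (Foxd3), with sums of 626 to 637 and 610 to 630. None of 9 pluripotency markers passed in limma's test (3 at an unadjusted p under 0.05, 1 after quantile normalisation), with sums of 22589 to 24333 and 23337 to 26120, and the smallest p was that of Tdgf1 (log2 difference -0.46 ± 0.10 SE; limma adjusted p = 0.052). Among the marker lists, the sums of the pluripotency markers were the highest in both groups. Of 10 progenitor markers 1 fell (Sox2), with sums of 4191 to 4608 and 5053 to 5474, or 1269 to 1426 and 1256 to 1341 for the 9 others without it. Of 10 neuronal markers 1 fell (Nefm), with sums of 1681 to 1835 and 2016 to 2244, or 1629 to 1788 and 1954 to 2179 for the 9 others. A log2 difference below 0 was found for 8 of the 10 neuronal markers, with a median of -0.04. All Nestin-Sox3 arrays lay below all Sox1-GFP arrays for 5 of them, against 18.3% of all genes. RMA values have no 0, so no marker can be called absent. With 1 array left out, the visceral endoderm count was 0 without Nestin-Sox3 replicate 1 or 2, 2 without Nestin-Sox3 replicate 3, and 5, 1 and 3 without Sox1-GFP replicates 1, 2 and 3. The mesenchyme count was then 1, 1 and 2, and 3, 1 and 3, in the same order. Over all named genes, 0.90% to 2.37% passed in these fits, against 3.94% with all arrays. Egfl7 and Foxd3 also lost their call after quantile normalisation (limma adjusted p = 0.058 and 0.057). Of the 25 reported genes of all lists that passed, 3 kept their call in all 6 fits with 1 array left out: Gpc4, Itgb2 and Col1a2.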

How the data were processed

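The authors deposited log2 expression values, and the submitters' processing notes name RMA and Affymetrix Power Tools. RMA corrects background, quantile-normalises arrays and summarises probes on the log2 scale. Tool versions, array type and probe set definitions are unstated in the sources at hand. Of 21940 probe sets, 64 controls were left out. The other 21876, named by RefSeq transcript, were matched by unversioned accession to a RefSeq table (GRCm38.p6, used for names): 17123 gave 1 symbol, 0 gave several and 4753 gave none.

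The comparison used limma 3.58.1 (R 4.3.3) with lmFit and eBayes (all 21876 probe sets, no filter, no block, two-sided), with Benjamini-Hochberg adjustment over all of them and a threshold of 0.05. The procedure was checked on simulated data. The members and lists were chosen with earlier results of these data known. The genes named are all members, Sox3, and from each list every gene past the threshold or the one with the smallest p. Of the list of other basement membrane proteins, 1 gene is not reported here. Precision is limited by the 3 arrays per group. Replicate numbers were not used as pairs: the labels state no pairing, and after the group means were removed, arrays with the same number correlated at 0.29, -0.21 and 0.12. Other settings were quantile normalisation, median centring, a filter at the 25th percentile of mean signal, an intensity trend, array weights, a replicate block, a threshold of 0.01, averaging of probe sets and leaving out each array.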

Additional observations from a re-analysis of the deposited data

How the results depend on the processing

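The 4 members kept their call under quantile normalisation, median centring, the filter, the intensity trend, array weights, the replicate block and probe set averaging. With the replicate block, 1 integrin, 3 matrix genes and 758 probe sets passed, against 1, 3 and 791 without it. It changed no member's call, and among list genes it ended those of Cd47, Egfl7 and Zyx. The block also added calls, as lower markers went from 1 to 3 for parietal endoderm and from 5 to 6 for visceral endoderm. At a threshold of 0.01, 0 integrins, 0 matrix genes and 150 probe sets passed in limma's test. At an unadjusted p under 0.05 in limma, 4 integrins and 5 matrix genes passed, against 23.8% of all genes. With array weights 3 integrins, 4 matrix genes and 2097 probe sets passed, the added members being Itga6 (0.26), Itga5 (0.14) and Agrn (-0.18), where 10.3% of all genes passed. With 1 array left out, 0 to 1 integrins, 0 to 3 matrix genes and 188 to 475 probe sets passed, and the medians of the integrin and matrix genes ran from 0.065 to 0.10 and from -0.022 to 0.059. Both counts were 0 without Nestin-Sox3 replicate 1, and that of the integrins also without Nestin-Sox3 replicate 3. Without Nestin-Sox3 replicate 1, 0.90% of all genes passed. Across the fits with 1 array left out, log2 differences ran from 0.37 to 0.46 for Itga3 and from 0.29 to 0.33 for Nid1. They ran from -0.34 to -0.29 for Fn1 and from -0.75 to -0.58 for Tgfbi.

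Members far from the threshold changed sign. After quantile normalisation the log2 difference was -0.017 for Itga2, -0.026 for Itga8, 0.043 for Itgb5 and -0.017 for Lamc3. With array weights it was -0.056 for Itga1, -0.0135 for Itga2, 0.023 for Itgb5, -0.0055 for Lama1, -0.012 for Lama5, -0.014 for Lamb3 and -0.0004 for Sparc. With 1 array left out it ran from -0.039 to 0.11 for Itga1, -0.045 to 0.079 for Itga2, -0.10 to 0.009 for Itga7, -0.027 to 0.099 for Itga8, -0.054 to 0.024 for Itgb5, -0.071 to 0.11 for Lama1, -0.028 to 0.18 for Lama2, -0.0041 to 0.070 for Lama5, -0.15 to 0.0081 for Lamb1, -0.022 to 0.17 for Lamb3, -0.028 to 0.084 for Lamc3 and -0.067 to 0.049 for Vtn. Among the 27 members that did not pass, 18 moved by over 1.5 times in at least 1 such fit, of which 6 kept their sign: Hspg2 (0.058 to 0.14), Itga4 (0.027 to 0.10), Itga9 (0.0087 to 0.094), Itgb3 (0.051 to 0.14), Itgb4 (0.15 to 0.31) and Sparc (0.035 to 0.21). The cause of these changes was not tested. The deposited values came with no signal over background, so what limits the dim members is unknown.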
